A study of Homo sapiens with 6 samples.

Results

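The genes described here encode the translation initiation factors (eIFs) and elongation factors (eEFs), and were chosen by symbol as all entries of the count table whose name begins with EIF or EEF and a digit. EEF1E1, a component of the aminoacyl-tRNA synthetase complex, and names holding a hyphen were left out. The rule found 65 of the 26485 entries of the table and used no expression value. It takes in inhibitors and modifying enzymes that carry these names, such as the eIF2 kinases, and leaves out eIF-related genes with other names.

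RNA was sequenced from REH cells, an established line of human B-precursor acute lymphoblastic leukemia that carries the ETV6-RUNX1 fusion, in 6 libraries. In 3 libraries the cells had been given 25 µM ML141, an inhibitor of the GTPase CDC42, for 24 h, and in 3 they had been given the solvent DMSO for the same time, in what the labels call 3 independent experiments. The comparison asks which transcripts change with ML141 in this single cell line at 1 dose and 1 time. Total counts were 10436147 to 12308039 in the ML141 libraries and 8284299 to 10837224 in the DMSO libraries, and levels are given as CPM, counts brought to a common library size with TMM factors. Beside a CPM, ± gives the SD of the 3 libraries of a group. With no count in a library, a level of up to 0.226 to 0.389 CPM remained possible (3 counts, for counting error alone). All 10 markers of B-precursor cells that were checked had counts, with a sum of 8575 to 8890 CPM in the ML141 libraries and 6419 to 6997 CPM in the DMSO libraries. Of the markers of other cells, CD3D and CD3G of T cells and HBB and HBA1 of erythroid cells were at 0, the 3 T cell markers summed to 0 CPM with ML141 and at most 0.0964 CPM with DMSO, the 3 erythroid markers to 0 and at most 0.104 CPM, and 4 myeloid markers to 29.3 to 30.9 CPM with ML141 and 43.8 to 45.3 CPM with DMSO. The 3 fibroblast markers summed to 0.556 to 1.72 CPM with ML141 and 1.87 to 2.07 CPM with DMSO. The part of these markers in the results below was not tested. In bulk RNA, fewer cells of a type and less RNA per cell cannot be told apart.

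Protein synthesis begins when eIF2 carries the initiator tRNA to the small ribosomal subunit, eIF3 holds the complex together, and the cap-binding complex eIF4F recruits an mRNA that is then scanned to its start codon. Elongation factors eEF1 and eEF2 then bring in each aminoacyl-tRNA and move the ribosome along the message. Signals on growth, amino acids and stress act at a few of these steps, mainly on cap binding through the eIF4E-binding proteins, on eIF2 through its kinases, and on eEF2 through its own kinase. Many elongation factor mRNAs begin with a run of pyrimidines and are known for control of their translation through mTORC1, which RNA levels do not show.

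Of the 65 genes, 55 had enough counts to be tested and 34 of these changed (edgeR's quasi-likelihood test, Benjamini-Hochberg adjusted p under 0.05 over 11454 genes), 6 of them higher and 28 lower with ML141. The genes that rose were EIF1, EIF2D, EIF3L, EIF4E3, EIF4EBP1 and EEF2. Those that fell were spread over the start codon factors, eIF2B, the eIF2 kinases, eIF3, the cap-binding group and eIF5A, with EIF4EBP2, EEF2K and EEF2KMT. The share of tested translation factors that changed was 61.8%, against 54.4% of all tested genes. The 6 higher genes were 10.9% of the factors, against 26.7% of all tested genes, and the 28 lower genes were 50.9%, against 27.7% of all tested genes. The median log2 fold change of ML141 over DMSO was -0.26 over the 55 factors and 0.02 over all tested genes.

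Counted by library, all 3 ML141 libraries lay below all 3 DMSO libraries for 29 factors, or 52.7%, against 30.7% of all tested genes. They lay above for 11 factors, or 20%, against 30.5% of all tested genes, and for 15 factors the groups overlapped. A fall of more than 1.5-fold was found for 14 factors, or 25.5%, against 15.5% of all tested genes. A rise of more than 1.5-fold was found for EIF1, EIF4E3 and EIF4EBP1, 3 factors beside a share of 15.5% of all tested genes. In the authors' deposited table of their own comparison, the same 6 factors were higher and the same 28 lower at an adjusted p under 0.05.

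**Figure D1:**
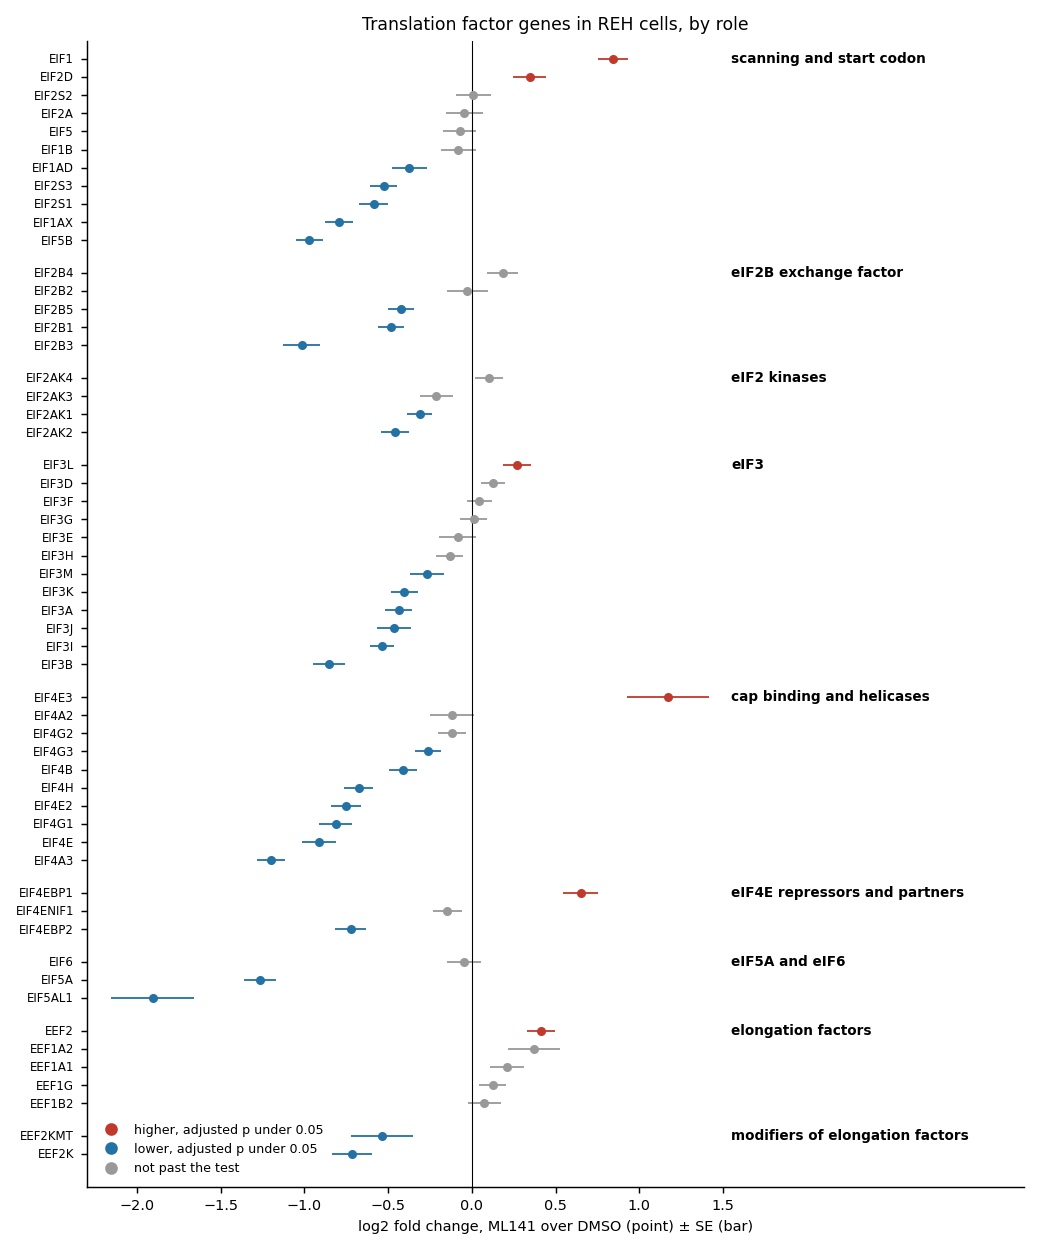
Log2 fold change of ML141 over DMSO (x axis, point) with its standard error (bar) for the 55 tested translation factor genes, grouped by role from top to bottom. Points of the cap-binding group run mostly left of 0 down to EIF4A3 at -1.20, while the 5 elongation factors sit right of 0, with EEF2 at 0.41 as the one past the test.

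The number of higher calls depends on how libraries are scaled. Scaling to upper quartiles shifted the median over all genes by 0.10 on the log2 scale and gave 12 higher and 24 lower factors, beside 33.6% of all genes higher and 22.8% lower. Scaling to library totals shifted it by 0.17 and gave 14 higher and 23 lower factors, beside 39.2% of all genes higher and 20.1% lower. Over all genes, 49.1% of calls were higher with TMM, 59.5% with upper quartiles and 66.1% with library totals.

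The other 10 factors were not tested. Of these, 6 were listed at 0 in every library, namely EIF4A1, EEF1D, EIF3C, EIF3CL, EIF4E1B and the pseudogene EEF1DP3. EIF4A1 encodes the main helicase of eIF4F, EEF1D a subunit of the eEF1 exchange complex and EIF3C a core subunit of eIF3, and since every cell uses these 3, a listing at 0 says nothing of their expression. In the GENCODE annotation 100% of the exon bases of EIF4A1 lie in the exons of AC016876.2 and 83.5% in those of the read-through gene SENP3-EIF4A1 on the same strand, and EIF3C and EIF3CL are near-identical copies. EEF1D overlaps genes on the other strand only, and EEF1G has counts with 99.9% of its exon bases in AP002990.1 on the same strand. The part of overlaps or copies in the zeros was not tested. The other 4 were below the filter on low counts, namely EIF1AY, EIF5A2, the pseudogene EIF3IP1 and EIF4EBP3. EIF4EBP3, the third eIF4E-binding protein, had 6, 16 and 10 counts in the ML141 libraries, against 3, 2 and 6 counts in the DMSO libraries, and the groups met at 6 counts. In the annotation 73.4% of its exon bases lie in the read-through gene ANKHD1-EIF4EBP3 on the same strand. The part of this overlap in its low counts was not tested.

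Among the 11 tested factors of scanning and start codon choice, 2 rose and 5 fell (median log2 fold change -0.080). Over all tested genes 26.7% rose and 27.7% fell. EIF1, which lets the scanning ribosome reject poor start codons, rose with the smallest p of the 6 higher factors. Its level was 791, 655 and 675 CPM in the ML141 libraries, against 402, 401 and 378 CPM in the DMSO libraries. The lowest ML141 library was at 655 CPM and the highest DMSO library at 402 CPM, so the groups lay well apart (log2 fold change 0.84 ± 0.088 (SE), edgeR adjusted p = 1.01e-05, 1.80-fold). EIF1 lies at chr17:41688885-41692668 on the plus strand of GRCh38. EIF1B, its close paralog, stood at 44.6, 40.6 and 44.9 CPM in the ML141 libraries, against 50.7, 42.8 and 44.3 CPM in the DMSO libraries. The groups overlapped and EIF1B did not pass the test (log2 fold change -0.080 ± 0.10 (SE), edgeR adjusted p = 0.538), and its sign turned with upper-quartile scaling, at 0.021, and with library totals, at 0.093. Within each library the log2 ratio of EIF1B to EIF1 was lower with ML141, at -4.14, -4.00 and -3.90 in the ML141 libraries and -2.98, -3.22 and -3.09 in the DMSO libraries.

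EIF5B, the GTPase that joins the large subunit to the small one, fell the most in this group. It had 138, 141 and 127 CPM in the ML141 libraries, against 274, 274 and 249 CPM in the DMSO libraries. The libraries of each group lay close together and the groups far apart (log2 fold change -0.97 ± 0.081 (SE), edgeR adjusted p = 1.92e-06, 1.96-fold lower). EIF5B shares 14.7% of its exon bases with REV1 on the other strand, and the library kit does not mark strand. EIF1AX, which encodes eIF1A, the partner of eIF1 in scanning, averaged 89.4 ± 1.99 CPM with ML141 and 155 ± 11.3 CPM with DMSO (log2 fold change -0.79 ± 0.083 (SE), edgeR adjusted p = 1.02e-05). The α subunit of eIF2, EIF2S1, averaged 200.1 ± 17.7 CPM with ML141 and 300.4 ± 14.7 CPM with DMSO, and the γ subunit, EIF2S3, averaged 452 ± 22.1 CPM with ML141 and 651 ± 36.3 CPM with DMSO. Both fell (log2 fold changes -0.59 and -0.53, edgeR adjusted p = 0.000129 and 0.000161). The β subunit, EIF2S2, averaged 243 ± 36.0 CPM with ML141 and 242 ± 15.8 CPM with DMSO and did not pass the test (log2 fold change 0.0093, edgeR adjusted p = 0.947).

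EIF2D, which can place tRNA on the ribosome without GTP, rose, with 88.3, 79.3 and 81.9 CPM in the ML141 libraries, against 63.1, 73.2 and 59.9 CPM in the DMSO libraries. The groups did not overlap, but the gap between the lowest ML141 library and the highest DMSO library was small (log2 fold change 0.35 ± 0.10 (SE), edgeR adjusted p = 0.0111), and without DMSO replicate 3 the adjusted p was 0.0663. EIF1AD, which carries a domain like that of eIF1A, fell to a mean of 35.0 ± 2.70 CPM with ML141, against 45.4 ± 2.66 CPM with DMSO (log2 fold change -0.37 ± 0.10 (SE), edgeR adjusted p = 0.00962), a call that was lost with upper-quartile scaling, at an adjusted p of 0.0521, and with library totals, at 0.125. EIF5, which triggers GTP hydrolysis by eIF2, and EIF2A, another protein that binds initiator tRNA, overlapped between groups, with log2 fold changes of -0.073 and -0.045. Both passed as lower without ML141 replicate 1, at adjusted p of 0.0366 for EIF5 and 0.0499 for EIF2A.

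**Figure D2:**
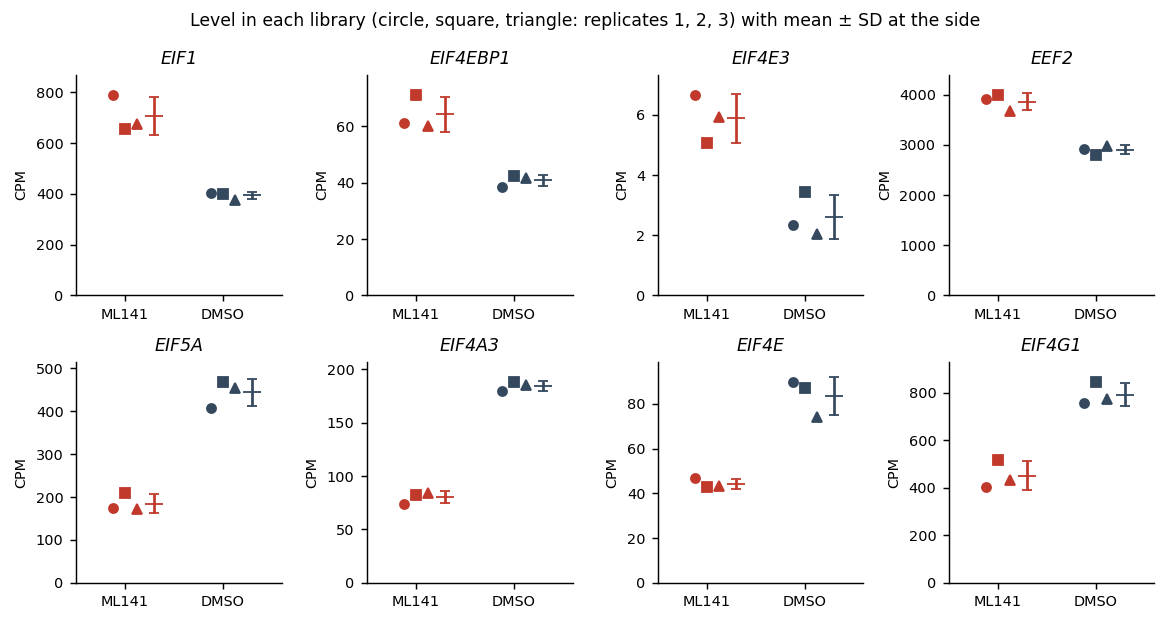
Level of 8 translation factor genes in each library (y axis, CPM from 0; circles, squares and triangles are replicates 1, 2 and 3) with the mean and SD of the 3 libraries beside them. The ML141 libraries lie above the DMSO libraries for EIF1, EIF4EBP1, EIF4E3 and EEF2 in the top row and below them for EIF5A, EIF4A3, EIF4E and EIF4G1 in the bottom row.

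The exchange factor eIF2B reloads eIF2 with GTP, and 3 of its 5 subunits fell while none rose (median log2 fold change -0.42). This stands beside 27.7% of all tested genes lower and 26.7% higher. EIF2B3, the γ subunit, had 28.0, 22.5 and 25.3 CPM in the ML141 libraries, against 48.9, 53.8 and 50.3 CPM in the DMSO libraries. All ML141 libraries lay far below the DMSO libraries (log2 fold change -1.02 ± 0.11 (SE), edgeR adjusted p = 1.4e-05, 2.02-fold lower). EIF2B1, the α subunit, had 101, 95.2 and 102 CPM in the ML141 libraries, against 134, 144 and 139 CPM in the DMSO libraries. The groups lay apart (log2 fold change -0.48 ± 0.079 (SE), edgeR adjusted p = 0.000285), although EIF2B1 shares 15.4% of its exon bases with DDX55 on the other strand. EIF2B5, the catalytic ε subunit, averaged 81.2 ± 1.13 CPM with ML141 and 109 ± 2.78 CPM with DMSO (log2 fold change -0.42 ± 0.079 (SE), edgeR adjusted p = 0.00076). EIF2B2 and EIF2B4, the β and δ subunits, did not pass the test, with log2 fold changes of -0.026 and 0.18. EIF2B4 lay above DMSO in all 3 ML141 libraries and passed with upper-quartile scaling, at an adjusted p of 0.0256, and with library totals, at 0.00769.

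The eIF2 kinases phosphorylate eIF2 under different stresses. With ML141, 2 of the 4 fell (median log2 fold change -0.26), beside 27.7% of all tested genes. EIF2AK2 encodes PKR, which senses double-stranded RNA, and had 126, 136 and 133 CPM in the ML141 libraries, against 196, 175 and 171 CPM in the DMSO libraries. No ML141 library reached the lowest DMSO library (log2 fold change -0.46 ± 0.082 (SE), edgeR adjusted p = 0.000591). EIF2AK1, the heme-regulated kinase, had 279.8, 290.3 and 311 CPM in the ML141 libraries, against 375, 363 and 356 CPM in the DMSO libraries. The groups were again apart (log2 fold change -0.31 ± 0.075 (SE), edgeR adjusted p = 0.00417), but the call was lost with library totals, at an adjusted p of 0.127. EIF2AK4 encodes GCN2, which senses uncharged tRNA, and stood at 87.8, 80.5 and 86.4 CPM in the ML141 libraries, against 77.3, 79.7 and 80.0 CPM in the DMSO libraries. Its ML141 libraries were slightly above the DMSO libraries, and it did not pass the test (log2 fold change 0.10 ± 0.083 (SE), edgeR adjusted p = 0.315). It passed with upper-quartile scaling, at an adjusted p of 0.0407, and with library totals, at 0.0103. EIF2AK3, which encodes PERK of the endoplasmic reticulum, averaged 97.5 ± 7.77 CPM with ML141 and 113 ± 11.6 CPM with DMSO with overlapping groups (log2 fold change -0.21 ± 0.10 (SE), edgeR adjusted p = 0.0861). Without ML141 replicate 1 it passed as lower, at an adjusted p of 0.0177, without DMSO replicate 2 at 0.0489, and with the replicate number as a block at 0.0239.

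Of the 12 tested subunits of eIF3, the scaffold between the small subunit and eIF4F, 6 fell and 1 rose (median log2 fold change -0.20). The shares over all tested genes were 27.7% lower and 26.7% higher. The members that fell were EIF3A, EIF3B, EIF3I, EIF3J, EIF3K and EIF3M. EIF3B, a core subunit, fell the most, with 220.1, 276 and 223 CPM in the ML141 libraries, against 416, 454 and 430.5 CPM in the DMSO libraries. The highest ML141 library lay far below the lowest DMSO library (log2 fold change -0.85 ± 0.10 (SE), edgeR adjusted p = 1.78e-05). EIF3I, which binds EIF3B, had 183, 183 and 179 CPM in the ML141 libraries, against 259, 269.6 and 261 CPM in the DMSO libraries. The 3 ML141 libraries lay close together and all under the DMSO libraries (log2 fold change -0.54 ± 0.071 (SE), edgeR adjusted p = 6.55e-05). EIF3A, the largest subunit, averaged 623 ± 31.2 CPM with ML141 and 842 ± 51.6 CPM with DMSO (log2 fold change -0.44), EIF3J, a loosely bound subunit, 222 ± 29.1 CPM with ML141 and 307 ± 23.5 CPM with DMSO (-0.47) and EIF3K 147 ± 9.32 CPM with ML141 and 194 ± 5.14 CPM with DMSO (-0.40). EIF3M averaged 375 ± 58.9 CPM with ML141 and 452 ± 1.41 CPM with DMSO (log2 fold change -0.27 ± 0.10 (SE), edgeR adjusted p = 0.0433), and its call was lost with upper quartiles, library totals or the stricter filter on low counts, at adjusted p of 0.127, 0.385 and 0.0546, and when any library but ML141 replicate 1 was left out, at adjusted p of 0.0963 to 0.122.

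EIF3L rose, with 764, 668 and 659 CPM in the ML141 libraries, against 615, 568 and 551 CPM in the DMSO libraries. The groups did not overlap (log2 fold change 0.27 ± 0.086 (SE), edgeR adjusted p = 0.0183). The adjusted p was 0.0813 without DMSO replicate 2 and 0.0833 without DMSO replicate 3, and 41.6% of the exon bases of EIF3L lie in AL022311.1 on the same strand. EIF3D, which can bind the cap itself, EIF3E, EIF3F, EIF3G and EIF3H did not pass the test, with log2 fold changes of -0.13 in EIF3H to 0.13 in EIF3D. EIF3D passed as higher with upper-quartile scaling and with library totals, at adjusted p of 0.0116 and 0.00225, EIF3F with library totals, at 0.0222, and EIF3H passed as lower without ML141 replicate 1, at 0.0386.

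The group of cap binding and helicase factors held 10 tested genes, of which 7 fell and 1 rose (median log2 fold change -0.54). Among all tested genes 27.7% fell and 26.7% rose. EIF4A3, a helicase of the exon junction complex and a relative of the eIF4F helicases, had 74.1, 82.7 and 84.2 CPM in the ML141 libraries, against 179, 188 and 186 CPM in the DMSO libraries. The highest ML141 library, at 84.2 CPM, lay far under the lowest DMSO library, at 179 CPM (log2 fold change -1.20 ± 0.083 (SE), edgeR adjusted p = 4.93e-07, 2.30-fold lower). EIF4E, the cap-binding protein, had 47.0, 43.0 and 43.1 CPM in the ML141 libraries, against 89.8, 87.2 and 73.9 CPM in the DMSO libraries. The groups did not overlap (log2 fold change -0.91 ± 0.10 (SE), edgeR adjusted p = 1.6e-05, 1.89-fold lower). EIF4G1, the scaffold that ties EIF4E to the helicase and to eIF3, had 403, 518 and 432 CPM in the ML141 libraries, against 756, 845 and 774 CPM in the DMSO libraries. Here ML141 replicate 2 was the highest of its group and still lay under every DMSO library (log2 fold change -0.81 ± 0.10 (SE), edgeR adjusted p = 3.34e-05). EIF4A3 lies at chr17:80135214-80147183 on the minus strand, EIF4E at chr4:98871684-98930637 on the minus strand and EIF4G1 at chr3:184314495-184335358 on the plus strand of GRCh38.

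The RefSeq promoter windows of these 3 genes (GRCh38.p14, 250 bases before to 50 after the annotated start) share the palindrome CACGTG, an E-box, which was searched in all windows. They are printed because 9 of the 11 tested factors that hold it fell (81.8%), beside 47.1% of the 34 without it. Over all tested genes with a window, 33.3% of those with the E-box and 27.9% of those without it were lower. The part of the E-box in the falls was not tested. The capitals mark the E-box, and the windows read 5′ to 3′ on the strand of the gene.
EIF4A3 (chr17:80147233-80147260, minus strand): cagttccctttCACGTGacgaagagtgc
EIF4E (chr4:98929189-98929216, minus strand): gacatatccgtCACGTGgccagaagctg
EIF4E (chr4:98929342-98929369, minus strand): tacccatcggcCACGTGaccagtccttt
EIF4G1 (chr3:184314451-184314478, plus strand): gctgtggctgtCACGTGacggggcgggg
EIF4G1 (chr3:184314528-184314555, plus strand): cctgcgccggtCACGTGggggcgccggc

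EIF4H and EIF4B, which stimulate the helicase, both fell, to means of 216 ± 18.3 CPM and 754 ± 40.8 CPM with ML141, against 345 ± 20.1 CPM and 1003 ± 55.5 CPM with DMSO (log2 fold changes -0.68 and -0.41, edgeR adjusted p = 4.68e-05 and 0.00108). EIF4E2, a cap-binding homolog that represses translation, had 62.0, 58.7 and 57.6 CPM in the ML141 libraries, against 96.3, 107 and 96.3 CPM in the DMSO libraries. It fell without overlap (log2 fold change -0.75 ± 0.088 (SE), edgeR adjusted p = 2.38e-05), with 22.8% of its exon bases under the antisense gene AC073254.1. EIF4G3, a scaffold related to EIF4G1, had 124, 137 and 128 CPM in the ML141 libraries, against 157, 161 and 150.3 CPM in the DMSO libraries. The groups lay apart by a smaller step (log2 fold change -0.26 ± 0.079 (SE), edgeR adjusted p = 0.0137), and the call was lost with upper-quartile scaling, at an adjusted p of 0.105, with library totals, at 0.335, and without DMSO replicate 2, at 0.0656. EIF4G2, a scaffold that lacks the site for EIF4E, had 2208, 2015 and 2086 CPM in the ML141 libraries, against 2317, 2414 and 2128 CPM in the DMSO libraries. The groups overlapped and the test was not passed (log2 fold change -0.12 ± 0.084 (SE), edgeR adjusted p = 0.244), and with library totals the log2 fold change was 0.053. EIF4A2, the second helicase of eIF4F, had 519.7, 384 and 371 CPM in the ML141 libraries, against 537, 423 and 424 CPM in the DMSO libraries. Replicate 1 was high in both groups and the groups overlapped (log2 fold change -0.12 ± 0.13 (SE), edgeR adjusted p = 0.475). Without ML141 replicate 1, EIF4A2 passed as lower, at an adjusted p of 0.0144.

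EIF4E3, another cap-binding homolog, was the one member of the group that rose. It had 6.67, 5.05 and 5.93 CPM in the ML141 libraries, against 2.33, 3.42 and 2.02 CPM in the DMSO libraries, from 208 counts in the ML141 libraries and 72 counts in the DMSO libraries. The groups did not overlap (log2 fold change 1.17 ± 0.24 (SE), edgeR adjusted p = 0.00157, 2.25-fold), and its standard error was the largest among the 6 higher factors. EIF4E3 lies at chr3:71675416-71754773 on the minus strand of GRCh38, and its RefSeq start falls inside that span. This window was the only one of the 45 tested factors with an entry (2.22%) that held TGATGNAA on either strand. That sequence is the core of the element bound by ATF4 with a partner protein. It was held by 2.71% of tested genes and 3.62% of all windows, so the share among the factors was not higher. EIF4EBP1 and EIF3L, which also rose, had no window and were not searched. The part of the match in the rise of EIF4E3 was not tested. The match is capitalised.
EIF4E3 (chr3:71729113-71729142, minus strand): tgccatggtgaTGATGAAAgttgggctgat

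The eIF4E-binding proteins compete with the scaffold for EIF4E, and their 2 tested members moved in opposite directions. EIF4EBP1 had 61.2, 71.3 and 60.2 CPM in the ML141 libraries, against 38.6, 42.3 and 41.8 CPM in the DMSO libraries. Every ML141 library lay above every DMSO library (log2 fold change 0.65 ± 0.10 (SE), edgeR adjusted p = 0.000235, 1.57-fold). EIF4EBP2 had 248, 316 and 297 CPM in the ML141 libraries, against 486, 473 and 462 CPM in the DMSO libraries. It fell in all 3 libraries (log2 fold change -0.72 ± 0.093 (SE), edgeR adjusted p = 5.09e-05). EIF4ENIF1, which carries EIF4E into the nucleus and to processing bodies, lay lower in all 3 ML141 libraries but did not pass the test (log2 fold change -0.15 ± 0.086 (SE), edgeR adjusted p = 0.17).

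EIF5A, whose product carries the amino acid hypusine and helps ribosomes through hard peptide bonds, had 173, 209.6 and 171 CPM in the ML141 libraries, against 408, 468 and 455 CPM in the DMSO libraries. The groups lay far apart (log2 fold change -1.26 ± 0.10 (SE), edgeR adjusted p = 1.07e-06, 2.40-fold lower). EIF5A lies at chr17:7306999-7312463 on the plus strand of GRCh38. EIF5AL1, a near-identical copy on chromosome 10, had 1.95, 1.96 and 1.38 CPM in the ML141 libraries, against 5.06, 7.36 and 7.33 CPM in the DMSO libraries, from 63 counts in the ML141 libraries and 186 counts in the DMSO libraries. It had the lowest log2 fold change of all factors (log2 fold change -1.90 ± 0.25 (SE), edgeR adjusted p = 5.36e-05), but its counts were 1.12%, 0.935% and 0.804% of those of EIF5A in the ML141 libraries, against 1.24%, 1.57% and 1.61% in the DMSO libraries. Reads of the 2 copies may have been split between them by the authors' counting, so EIF5AL1 is uncertain. EIF6, which keeps free large subunits from joining, averaged 59.6 ± 4.10 CPM with ML141 and 61.4 ± 5.60 CPM with DMSO with overlapping groups (log2 fold change -0.045 ± 0.10 (SE), edgeR adjusted p = 0.726).

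Of the 5 tested elongation factors none fell and 1 rose, beside 27.7% and 26.7% of all tested genes. Their median log2 fold change was 0.21 beside 0.02 for all tested genes. With upper-quartile scaling 4 of the 5 passed as higher, beside 33.6% of all genes (median 0.31 beside 0.12 for all genes). With library totals all 5 passed as higher, beside 39.2% of all genes (median 0.38 beside 0.19). EEF2, the GTPase that moves the ribosome along the message, had 3919, 4002 and 3673 CPM in the ML141 libraries, against 2914, 2806 and 2985 CPM in the DMSO libraries. The lowest ML141 library lay well above the highest DMSO library (log2 fold change 0.41 ± 0.082 (SE), edgeR adjusted p = 0.00111, 1.33-fold). EEF2 lies at chr19:3976056-3985469 on the minus strand of GRCh38. EEF1A1, which delivers aminoacyl-tRNA, had 7718, 6389 and 6699 CPM in the ML141 libraries, against 6660.2, 5618 and 5715 CPM in the DMSO libraries. Replicate 1 was the highest of each group, the groups overlapped and the test was not passed (log2 fold change 0.21 ± 0.10 (SE), edgeR adjusted p = 0.107), whereas the adjusted p was 0.0288 with no filter on low counts. The same-numbered libraries share a part of their names in the labels, and EEF1A1 was higher with ML141 in 3 of the 3 same-numbered pairs. With the replicate number as a block it passed as higher, at an adjusted p of 0.0134. EEF1A2, its paralog of muscle and neurons, had 10.8, 13.6 and 14.6 CPM in the ML141 libraries, against 9.72, 9.74 and 10.7 CPM in the DMSO libraries. Its ML141 libraries lay just above the DMSO libraries without passing the test (log2 fold change 0.37 ± 0.16 (SE), edgeR adjusted p = 0.0646), and the adjusted p was 0.0154 without ML141 replicate 1 and 0.0401 with the replicate block. EEF1B2 and EEF1G, subunits of the complex that exchanges the nucleotide of eEF1A, had log2 fold changes of 0.075 and 0.12, and 99.9% of the exon bases of EEF1G lie in AP002990.1 on the same strand.

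EEF2K and EEF2KMT, the tested members that act on eEF2 as enzymes, both fell. Of the diphthamide enzymes, which are not members, DPH1, DPH5 and DPH6 rose, DPH2 fell, and DPH3 and DPH7 did not pass the test. EEF2K, the kinase that inactivates eEF2, had 43.6, 61.1 and 56.7 CPM in the ML141 libraries, against 90.2, 86.3 and 89.3 CPM in the DMSO libraries. The ML141 libraries spread more than the DMSO libraries and stayed below them (log2 fold change -0.72 ± 0.12 (SE), edgeR adjusted p = 0.000309). EEF2KMT, which methylates eEF2, had 10.7, 10.3 and 8.08 CPM in the ML141 libraries, against 17.6, 11.5 and 13.4 CPM in the DMSO libraries. The groups lay close (log2 fold change -0.54 ± 0.19 (SE), edgeR adjusted p = 0.0268), and the call was lost with upper-quartile scaling, at an adjusted p of 0.0658, with library totals, at 0.111, without ML141 replicate 3, at 0.115, without DMSO replicate 1, at 0.123, and without DMSO replicate 3, at 0.0507. EEF2KMT also shares 35.1% of its exon bases with ALG1 on the other strand.

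The members were also summed by step in each library. The 5 tested elongation factors together held 13437, 12031 and 12216 CPM in the ML141 libraries, against 11277, 9976 and 10349 CPM in the DMSO libraries. The 41 tested initiation factors other than kinases and eIF4E repressors, with eIF5A and eIF6 among them, held 12593, 11452 and 11588 CPM in the ML141 libraries, against 14538, 14465 and 13668 CPM in the DMSO libraries. Both sums lay apart. The ratio of the elongation to the initiation counts, which does not depend on scaling between libraries, was 1.07, 1.05 and 1.05 with ML141, against 0.776, 0.690 and 0.757 with DMSO. Without EEF1A1, the most counted gene, it was 0.454, 0.493 and 0.476 with ML141, against 0.318, 0.301 and 0.339 with DMSO. EEF2, the 1 elongation factor that passed the test, then held the most elongation counts. No p-value is given for these sums, since they are scores over chosen members. The sums lack EIF4A1, EIF3C and EEF1D, which were listed at 0, and the 41 include EIF4A3 and EIF4E2. The level of the ratio and its change therefore hold only for the members that were counted. All 55 tested factors together held 25520.4 ± 1336 CPM with ML141 and 26177 ± 982 CPM with DMSO, with overlapping groups, whereas as an unscaled share of library counts they took 2.71% ± 0.081 with ML141 and 2.46% ± 0.068 with DMSO (SD, n = 3 each), so the direction of the total depends on the scaling.

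**Figure D3:**
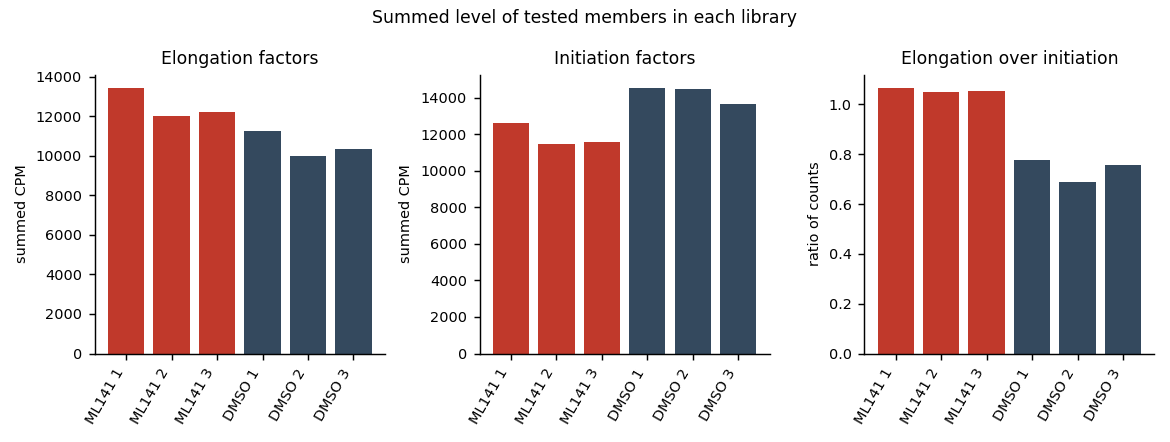
Summed CPM of the 5 tested elongation factors (left) and of 41 tested initiation factors (middle), and the ratio of their counts (right), with 1 bar per library and every axis from 0. The ratio lies at 1.05 to 1.07 in the ML141 libraries and at 0.690 to 0.776 in the DMSO libraries. EIF4A1, EIF3C and EEF1D, listed at 0, are missing from the sums.

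The 9 ratios, all between related genes except that of the kinase EEF2K to its target EEF2, were taken within libraries, so that scaling between libraries cancels. In 8 of the 9 the 3 ML141 ratios lay on one side of the 3 DMSO ratios. Each of these 8 had p = 0.1 in an exact permutation test, the floor for 3 libraries against 3, or 0.113 adjusted over the 9. Ratios of other gene pairs were not taken, so this count is not shown to be particular to these pairs. As single genes, 30.5% of all tested genes had every ML141 library above DMSO and 30.7% had every one below. EIF4E3 over EIF4E moved the most, with a mean log2 ratio of -2.88 ± 0.14 with ML141 and -4.94 ± 0.30 with DMSO (SD, n = 3 each), a difference of 2.06. EIF4EBP2 over EIF4EBP1 differed by -1.38, with means of 2.15 ± 0.14 with ML141 and 3.53 ± 0.10 with DMSO. EEF2K over EEF2 differed by -1.14 and EIF1B over EIF1 by -0.92. Relative to EIF4G1, the other scaffolds were higher with ML141, EIF4G2 by 0.70 and EIF4G3 by 0.55 on the log2 scale. EIF2AK4 over EIF2AK1 differed by 0.42 and EIF4E2 over EIF4E by 0.16. The remaining ratio, EEF1A2 over EEF1A1, overlapped between the groups, with a difference of 0.15 (exact permutation p = 0.6, adjusted p = 0.6).

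**Figure D4:**
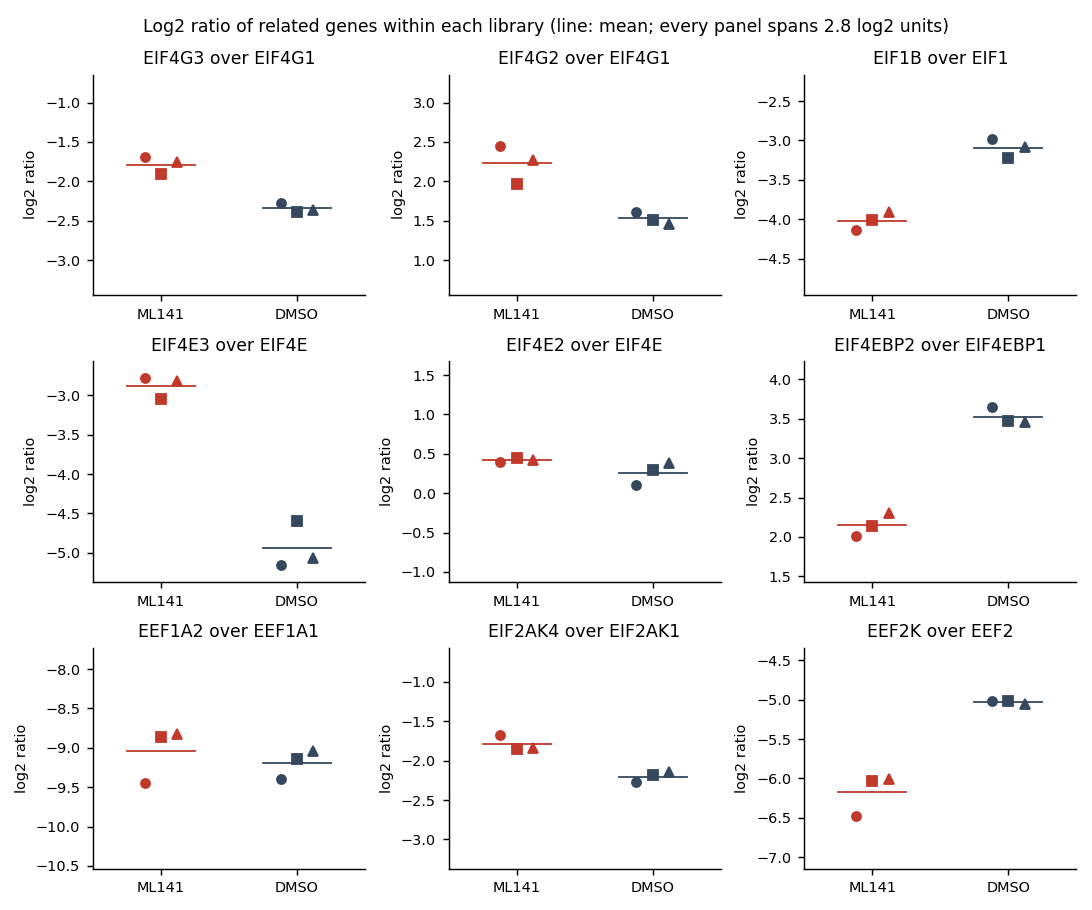
Log2 ratio of 9 pairs of genes in each library (y axis), with the same span of log2 units in every panel. Circles, squares and triangles are replicates 1, 2 and 3, and lines are means. All are pairs of related genes except EEF2K over EEF2, a kinase over its target. The groups do not overlap in 8 panels and overlap for EEF1A2 over EEF1A1.

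Start sequences were then set beside the changes, as a description with no test. A terminal oligopyrimidine start, here a C at the annotated start followed by at least 4 pyrimidines, is the mark of mRNAs whose translation follows mTORC1. This definition was set after the values were seen. It was held by 12 of the 45 tested factors with a RefSeq window, or 26.7%, against 7.73% of tested genes and 4.07% of all windows. The starts of 7 of them are shown, 3 elongation factors and 4 initiation factors that rose, fell or did not pass the test, with those of EIF1 and EIF5B, the extremes of the start codon group, as members without one. The windows run from 12 bases before the start to 18 bases into the transcript, on the strand of the gene, and the capitals mark the pyrimidine run from the start base.
EEF2 (chr19:3985446-3985475, minus strand): gacgtcagcgttCTCTTCCgccgtcgtcgc
EEF1A1 (chr6:73521015-73521044, minus strand): gccgtgaacgttCTTTTTCgcaacgggttt
EEF1B2 (chr2:206159883-206159912, plus strand): gtctcttcgggtCCTTTTTCCTCTCTTCag
EIF3F (chr11:7987325-7987354, plus strand): cgcttccgcctcCTTCTTTCTCgacaagat
EIF2D (chr1:206612448-206612477, minus strand): ttccagccgggcCCTTTTCgcggccgggcc
EIF2S3 (chrX:24054944-24054973, plus strand): gtgatttccttcCTCTTTTggcaacatggc
EIF4B (chr12:53006444-53006473, plus strand): cctcatccgggtCTTTTgcgttctctttcc
EIF1 (chr17:41688873-41688902, plus strand): caccgcccctctgccccagtcactgagccg
EIF5B (chr2:99337377-99337406, plus strand): cactgagaactcacaccatatgtgtcctgt

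The 12 factors with this start were EEF1A1, EEF1B2, EEF2, EIF2A, EIF2D, EIF2S3, EIF3D, EIF3F, EIF3K, EIF3M, EIF4A2 and EIF4B. Of these, 2 rose and 4 fell, with log2 fold changes of -0.53 to 0.41 and a median of -0.00082. Of the 33 without it, 2 rose and 21 fell, with a median of -0.47. Over all tested genes with a window the shares were 29.3% higher and 27.4% lower among the 668 that held it and 26.2% higher and 28.7% lower among the 7976 that did not. A list of known oligopyrimidine mRNAs (EEF1A1, EEF1B2, EEF1D, EEF1G, EEF2, EIF3E, EIF3F, EIF3H and EIF4B), taken from general knowledge and not from the windows, gave 1 higher and 1 lower of 8 tested with a median of 0.059. The 47 other tested factors gave 5 higher and 27 lower, with a median of -0.37. EEF1G is on the list of known mRNAs but among the 33 whose windows lack the start, so the list and the windows sort it differently.

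The E-box CACGTG was held by 11 of the 45 factors, or 24.4%, against 12.8% of tested genes and 7.26% of all windows. None of the 11 rose and 9 fell (81.8%), their median log2 fold change being -0.68, against 4 higher and 16 lower (47.1%) of the 34 without it, with a median of -0.18. Over all tested genes with a window, 33.3% of those with the E-box and 27.9% of those without it were lower. The 9 that fell were EEF2K, EIF2AK2, EIF2B3, EIF3K, EIF4A3, EIF4B, EIF4E, EIF4G1 and EIF4H, and EIF1B and EIF3F held it without a call. EIF3K, EIF4B and EIF3F held both this E-box and the oligopyrimidine start. The E-boxes of EIF2B3, EEF2K and EIF4H, which fell, and of EIF1B and EIF3F, which did not pass the test, are shown to set beside those of EIF4A3, EIF4E and EIF4G1 above.
EIF2B3 (chr1:44986758-44986785, minus strand): acagagggacaCACGTGtcgaatgctcc
EEF2K (chr16:22206208-22206235, plus strand): ctgggggcggcCACGTGagcgccacgcc
EIF4H (chr7:74174146-74174173, plus strand): cgccgccgcacCACGTGggctgcagagc
EIF1B (chr3:40309642-40309669, plus strand): cgcgggacggtCACGTGggaggggccgc
EIF3F (chr11:7987258-7987285, plus strand): aagctctagctCACGTGgtgtatattca

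**Figure D5:**
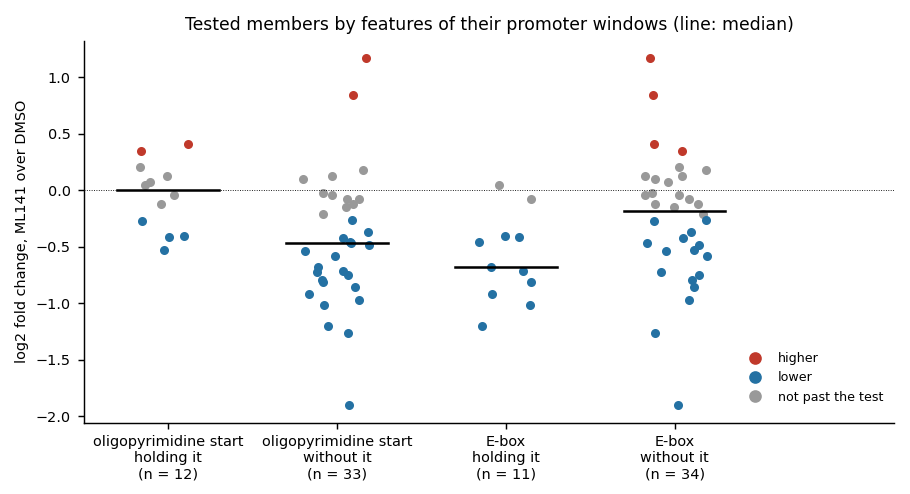
Log2 fold change of ML141 over DMSO (y axis) of the 45 tested translation factors with a promoter window, split by whether the window holds an oligopyrimidine start or an E-box, with lines at the medians. The 12 factors with the oligopyrimidine start centre on 0 and the 33 without it on -0.47, while the 11 with an E-box centre on -0.68 and the 34 without it on -0.18.

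A wider list of 48 translation genes that are not eIFs or eEFs by name was set beside the factors, of which 47 were tested, 9 rose (19.1%, beside 26.7% of all tested genes) and 16 fell (34%, beside 27.7%), with a median log2 fold change of -0.085. Among termination, recycling and rescue factors 2 rose and 3 fell of 8, among poly(A) and mRNA recruitment factors 2 and 6 of 15, in the eIF2 phosphatase 1 and 1 of 4, among enzymes of hypusine, diphthamide and selenocysteine 3 and 1 of 10, and among mitochondrial factors 1 and 5 of 10. PPP1R15A, the stress-induced subunit that brings a phosphatase to eIF2, averaged 148 ± 22.2 CPM with ML141 and 18.5 ± 1.65 CPM with DMSO, the widest change of the list, while the phosphatase subunit PPP1CC averaged 331 ± 17.5 CPM with ML141 and 584 ± 32.4 CPM with DMSO (log2 fold changes 3.00 and -0.82, edgeR adjusted p = 3.09e-08 and 5.8e-06). PDCD4, which blocks the eIF4F helicase, rose to 133 ± 17.5 CPM with ML141, against 53.6 ± 7.57 CPM with DMSO (log2 fold change 1.32 ± 0.12 (SE), edgeR adjusted p = 4.15e-06). GTPBP2, a ribosome rescue factor, rose to 66.1 ± 3.47 CPM with ML141, against 34.4 ± 5.10 CPM with DMSO (log2 fold change 0.94 ± 0.12 (SE), edgeR adjusted p = 3.9e-05). BZW2, an eIF5 mimic, fell to 123 ± 4.68 CPM with ML141, against 216 ± 10.7 CPM with DMSO (log2 fold change -0.82 ± 0.078 (SE), edgeR adjusted p = 5.23e-06). CDC123, which assembles eIF2, fell to 126 ± 6.72 CPM with ML141, against 213 ± 10.3 CPM with DMSO (log2 fold change -0.75 ± 0.080 (SE), edgeR adjusted p = 1.19e-05). Of the eIF2 subunits, EIF2S1 and EIF2S3 fell, and EIF2S2 did not pass the test (log2 fold change 0.0093).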

How the data were processed

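RNA of 6 REH libraries was measured, 3 with ML141 and 3 with DMSO, with groups and replicate numbers taken from the sample titles. Per the labels' protocols, libraries were made from total RNA by the TruSeq RNA v2 method, which does not mark strand. The deposited table gives raw counts for each gene symbol. The submitters' processing notes name hg38 as the build and, as tools, featureCounts, DESeq2, Bowtie2, Trimmomatic, Picard and bcl2fastq 2.19. The sources used here do not give their settings or the gene annotation. The authors' deposited log2 fold changes and adjusted p-values were used only where named, and their deposited scores, counts divided by size factors, were not used.

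Genes were filtered with filterByExpr (minimum count 10, minimum total 15). The 11454 genes left held 99.9% of counts and were tested with edgeR 4.0.16 in R 4.3.3 (TMM, glmQLFit and glmQLFTest, group as the only term, 2-sided, Benjamini-Hochberg over all genes, threshold 0.05). The standard error is the log2 fold change over the square root of F. Ratios of 2 genes are log2 CPM differences with a prior count of 2, compared by an exact permutation test over libraries, 2-sided. Within groups, pairs of libraries differed by a chi-square of 2.98 to 19.6 per degree of freedom, so none was a duplicate. Only the edgeR test was run on simulated counts, in which few genes were changed, evenly in both directions, unlike the wide changes here. The permutation test, DESeq2 and limma-voom were not run on simulated data.

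Positions and overlaps come from GENCODE 29 on GRCh38, the build hg38, 1-based. Sequences come from RefSeq on GRCh38.p14, with a window for 51 of the 65 factors and for 75.5% of tested genes; motifs were searched on both strands of 300 bases. The alternatives were upper-quartile factors, library totals or DESeq2 size factors for scaling, no or a stricter low-count filter (1 CPM in 3 libraries), the DESeq2 1.42.0 Wald test, limma-voom (limma 3.58.1), a replicate block, leaving out single libraries or replicate numbers, a fold change of at least 1.5, and a prior count of 0.5. The members, lists and alternatives were chosen with earlier results of these data known. Named with their value in every library were up to 8 higher (6 were called) and 8 lower factors with the largest change, the 2 with the smallest p in each role group, and every factor in a ratio. Of other translation genes, the 3 higher and 3 lower with the smallest p are given as means.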

Additional observations from a re-analysis of the deposited data

How the results depend on the processing

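Of the 34 factors that changed, 27 kept their call in the same direction under every other scaling, filter and test, the block and each left-out library or number, 4 higher and 23 lower, and 17 of these also passed a minimum fold change of 1.5, 3 higher and 14 lower. The 7 that lost it under some setting other than the fold change were EIF2D, EIF3L, EIF1AD, EIF2AK1, EIF3M, EIF4G3 and EEF2KMT. The count of higher factors was 6, and 12 with upper-quartile factors, 14 with library totals and 3 with a minimum fold change of 1.5. The count of lower factors was 28, and 14 with that minimum fold change. Leaving out libraries or replicate numbers gave 4 to 7 higher and 24 to 33 lower factors, while 16.8% to 27.5% of all tested genes were higher and 19.6% to 29% lower. The lowest counts, 4 higher and 24 lower, were without replicate 3 of both groups, where the shares over all genes were lowest too. Without DMSO replicate 3 alone 4 factors were higher as well, beside 22.1% of all tested genes. The 33 lower were without ML141 replicate 1, where EIF2A, EIF2AK3, EIF3H, EIF4A2 and EIF5 passed as well. Upper-quartile factors turned the sign of 6 factors and library totals that of 10, all without a call in either fit, beside shifts of all genes by 0.10 and 0.17. Among them were EIF1B (0.021 with upper-quartile factors, 0.093 with library totals) and EIF4G2 (0.053 with library totals). No called factor changed sign under any alternative.

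The names of same-numbered libraries share a part in the labels, which do not say what it marks. Their deviations correlated at 0.374, 0.0847 and 0.178, and ML141 replicate 2 correlated best with DMSO replicate 3 (0.291), so the block was kept as an alternative. With the replicate number as a block, 8 factors were higher and 29 lower, beside 30% and 30.9% of all tested genes, with EEF1A1 and EEF1A2 higher and EIF2AK3 lower in addition. Block p-values of the ratios could not go below 0.25.

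Leaving out a library, or a replicate number from both groups, kept the sign of all 9 ratios, over these ranges: EIF4E3 over EIF4E 1.90 to 2.31, EIF4EBP2 over EIF4EBP1 -1.48 to -1.25, EEF2K over EEF2 -1.24 to -0.98, EIF1B over EIF1 -0.99 to -0.80, EIF4G2 over EIF4G1 0.59 to 0.83, EIF4G3 over EIF4G1 0.51 to 0.62, EIF2AK4 over EIF2AK1 0.32 to 0.47, EIF4E2 over EIF4E 0.08 to 0.22 and EEF1A2 over EEF1A1 0.04 to 0.35. The ratio of EIF4A2 to EIF4A1, listed at 0, and that of EIF5A2, below the filter, to EIF5A were not run. EIF4E3, EIF5AL1 and EIF4EBP3 are limited by their few counts.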

Other observations

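The spread within a group was not shared evenly by the libraries. Of the 21 tested factors without a call, ML141 replicate 1 was the highest ML141 library for 13 and ML141 replicate 2 the lowest for 15. Both held for 11 of them, namely EEF1A1, EEF1B2, EIF2A, EIF2AK3, EIF2AK4, EIF2B2, EIF2S2, EIF3E, EIF3H, EIF4G2 and EIF5. Of the 28 factors that fell, ML141 replicate 1 was the highest ML141 library for 11 and the lowest for 12. In the DMSO group, replicate 3 was the lowest library for 25 of the 55 tested factors and the highest for 9. These counts were made after the values were seen, and their cause was not tested. The 21 were also set apart by not passing the test on the same values. The same counts were not made over all tested genes, so they are not shown to be particular to the factors.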
